A study of Mus musculus with 4 samples.

Results

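Eph receptors and their ephrin ligands were examined in mouse embryonic fibroblasts (MEFs) that carry or lack Ip6k1, the gene for an inositol hexakisphosphate kinase. The 10 genes were taken by name from the array files: the A-class receptors Epha2, Epha3, Epha4 and Epha7, the B-class receptors Ephb2, Ephb3 and Ephb4, the A-class ligand Efna5 and the B-class ligands Efnb1 and Efnb2. They are 10 of 27827 gene names and 18 of 41174 probes on the array. All 10 genes had at least 1 probe well above background in every line. None differed between genotypes by limma at an adjusted p of 0.05, which 0.014% of all gene names tested passed. None passed the fold cutoff, which asks for 2-fold in the mean and for a log2 difference of 0.9 in each single Ip6k1-/- line, although the means of Epha4 and Epha7 were 3.29-fold and 2.92-fold lower and single lines decided such calls. Of all gene names tested, 1.51% passed the fold cutoff as higher and 2.44% as lower. Ephb3 was the only one of the 15 probes tested whose genotypes differed by more than either pair of lines of 1 genotype did.

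The groups were 2 Ip6k1+/+ and 2 Ip6k1-/- MEF lines. Each line came from a different E14 embryo of 1 litter of heterozygous parents, and all 4 carry SV40 large T antigen, which immortalised them. The cells were growing exponentially and received no other treatment. The RNA of each line was hybridised to 1 array, and all 4 arrays lay on the same slide. Each genotype is thus represented by 2 sibling lines, and what belongs to an embryo and what arose in its culture cannot be told apart.

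Eph receptors are the largest family of receptor tyrosine kinases in mammals. They bind ephrins on the surface of a neighbouring cell: A-class ephrins are held in the membrane by a lipid anchor and mainly bind EphA receptors, whereas B-class ephrins span the membrane and mainly bind EphB receptors. Signals run both into the cell with the receptor and into the cell with the ephrin, act largely through Src-family kinases on the cytoskeleton, and are known in fibroblasts for repulsion, cell sorting, spreading and migration.

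A level on the array is read by a probe of 60 bases, and several of these genes are read by more than 1 probe. The first 30 bases of the probes on which the account turns are printed here 5′ to 3′, as the deposited files hold them and in lower case, with no base marked. Epha7 and Efna5 are shown because their probes are assigned to different transcripts of 1 gene and were not detected alike, Epha4 because both of its probes gave the widest spread between lines, and Ephb3 because its genotypes were the most clearly separated.
Epha7 A_52_P504787: tggccatcaaaagaagatcatgagcagcat
Epha7 A_52_P306236: cagttaggctgcagtgtaaatatataaaga
Efna5 A_51_P144319: tgtgattctagcatttgtctctaaccaatg
Efna5 A_51_P218009: tcggaaaaattccagctcttcactcccttt
Epha4 A_51_P221762: tgcctccgatacacaatgctaaagtgacat
Epha4 A_52_P288177: ccaataaatatttattgcattctgacaggg
Ephb3 A_51_P334199: ggagatatggtgccccatcctgaagccagc
Over all 18 probes the GC content lay between 35.0% and 55.0%, with a median of 45.0% against 40.0% for all probes. The longest run of bases that a probe shared with a probe of another gene name was between 12 and 16 bases. Only probes were compared with each other, so whether a probe also reads the transcript of another receptor or ligand was not examined. The positions given in the text are those of the array files on the mm9 build. Exons and UTRs were not assigned, because an annotation of that build was not used here.

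Values are log2 of the background-corrected signal minus the 75th percentile of the array, so 0 marks that percentile and a difference of 1 is 2-fold. A value is a level relative to its own array and is compared between lines for 1 probe at a time, not between probes. The exception is a sum over marker probes, given below. The share of probes well above background was 51.97% to 55.51% on the 4 arrays, and the dimmest of these had a log2 signal between -5.18 and -4.68. The targeted gene followed the labels: Ip6k1 probe A_51_P213766 read 0.35 and 0.39 in the Ip6k1+/+ lines but in both Ip6k1-/- lines it was not well above background, at least 34-fold lower (limma adjusted p = 0.0354), and probe A_52_P413035 was at least 32.7-fold lower (limma adjusted p = 0.0354). The other Ip6k1 probe, A_51_P103718, kept a signal in the Ip6k1-/- lines, at -1.98 and -1.23 against 2.46 and 2.61. It did not pass limma (adjusted p = 0.367). Whether it lies outside the deleted stretch was not examined. The fibroblast identity was borne out by the markers: 10 of 12 marker genes were well above background in every line, including Col1a1, Col1a2 and Vim, which had saturated probes. Signal was also summed over all probes of the 12 genes, in units of the 75th percentile. It was 482.6 to 499 in Ip6k1+/+ lines and 405.1 to 474.6 in Ip6k1-/- lines. The sum holds the saturated probes, which cannot show differences in full, so it is a rough measure. Of 19 marker probes tested, 11 were higher and 8 lower in Ip6k1-/- lines, with a median of 0.07. Col3a1 probe A_51_P515605 read 6.24 and 5.90 against 5.46 and 4.17. Thy1 was 0.90 and 1.03 higher in mean, with wider gaps between lines of 1 genotype. The receptor Pdgfrb (4.67 and 4.45 against 3.34 and 3.39) and the matrix proteoglycan Dcn (0.99 and 1.89 against -2.09 and 0.18) passed the fold cutoff as lower in Ip6k1-/- lines, and the part of this difference between lines in the values of Eph and ephrin genes was not tested. In bulk RNA, fewer cells with a transcript and less transcript per cell cannot be told apart.

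**Figure D1:**
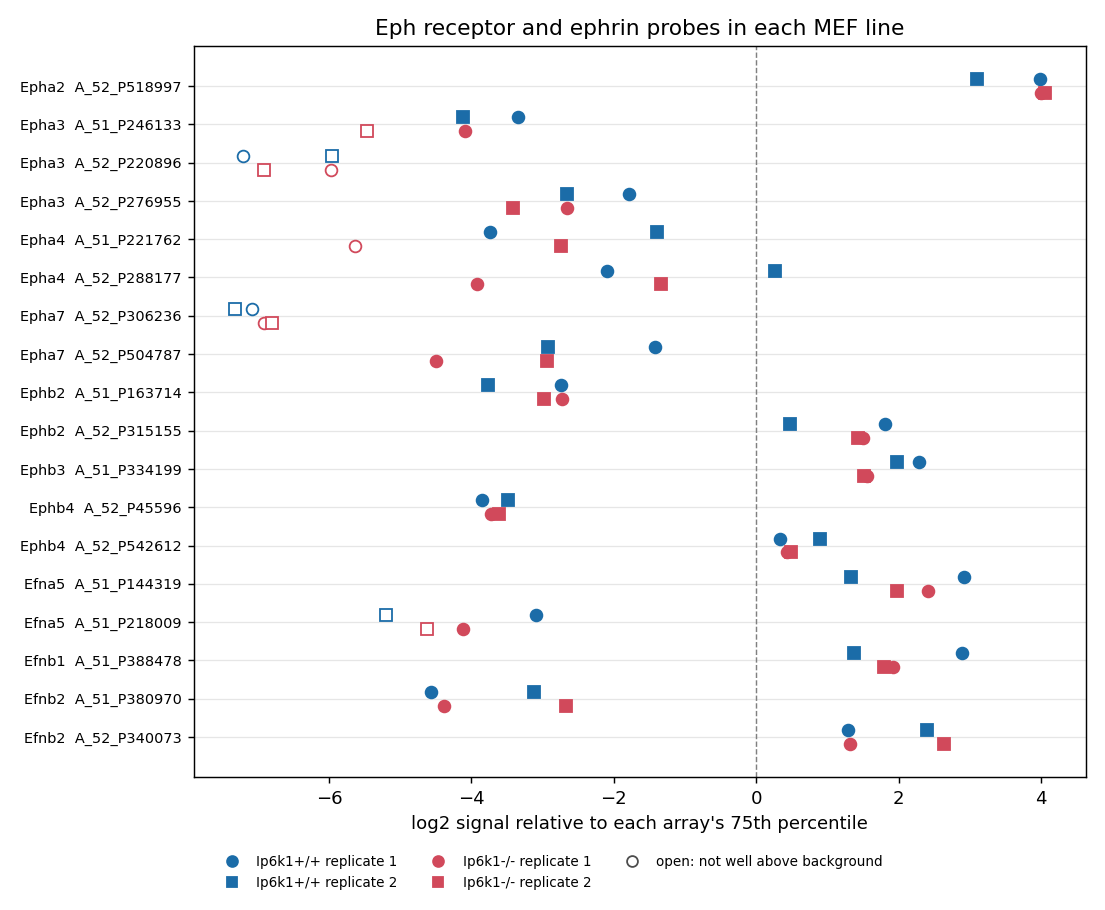
Level of each of the 18 probes in each line, as log2 signal relative to the array's 75th percentile (horizontal axis). Blue symbols are Ip6k1+/+ and red symbols Ip6k1-/- lines, circles are replicate 1 and squares replicate 2, and open symbols were not well above background; the blue and red symbols of most probes overlap, and those of Ephb3 do not.

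Among the A-class receptors, Epha2 was read by 1 probe (chr4:140885139-140885198, plus strand). Epha2 is a receptor that epithelial and many cultured cells carry and that also signals without ligand. It read 3.98 and 3.11 in Ip6k1+/+ MEFs against 4.00 and 4.06 in Ip6k1-/- MEFs. Ip6k1+/+ replicate 2 stood below the remaining lines, which were close to each other. The mean difference was 0.48 (standard error 0.33, 95% interval -0.39 to 1.35, limma adjusted p = 0.993), and the 0.88 between the Ip6k1+/+ lines was larger.

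Epha3, whose main ligand is ephrin-A5, was read by 3 probes on chromosome 16. Probe A_52_P276955 (chr16:63545155-63545214, minus strand) read -1.79 and -2.65 in Ip6k1+/+ lines and -2.65 and -3.42 in Ip6k1-/- lines. The order of the genotypes rests on a gap of 0.0012 between Ip6k1+/+ replicate 2 and Ip6k1-/- replicate 1, so these lines read the same. The difference was -0.81 (standard error 0.48, 95% interval -2.06 to 0.43, limma adjusted p = 0.993). Probe A_51_P246133, whose mapped stretch lies just beside the first, read -3.34 and -4.12 against -4.09 and -5.46, with the last value not well above background. It gave -1.05 (standard error 0.61, limma adjusted p = 0.993), so both probes had replicate 1 above replicate 2 in each genotype. The third, A_52_P220896, is assigned to a separate cDNA clone, and no line had it well above background.

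Epha4 is a receptor that binds ephrins of both classes and is well studied in axon repulsion. Probe A_52_P288177 (chr1:77364688-77364747, minus strand) read -2.10 and 0.26 in Ip6k1+/+ lines and -3.93 and -1.34 in Ip6k1-/- lines. Replicate 2 was above replicate 1 in both genotypes, and Ip6k1-/- replicate 2 lay between the Ip6k1+/+ lines. The mean of the Ip6k1-/- lines was 3.29-fold lower, or -1.72 on the log2 scale (standard error 1.17, 95% interval -4.78 to 1.34, limma adjusted p = 0.993). The lines of 1 genotype differed by 2.36 and 2.59, more than the genotypes did. Probe A_51_P221762 (chr1:77365747-77365806) gave the same picture, at -3.74 and -1.39 against -5.63 (not well above background) and -2.74, and differed between genotypes by -1.62 (standard error 1.25, limma adjusted p = 0.993). Fibroblast markers also differed between replicates: of 19 marker probes tested, 12 were higher in replicate 1 of both genotypes, such as Lum, Pdgfra and Twist1, 3 were higher in replicate 2 of both, those of Thy1 and Dcn, and 4 had opposite orders. The 12 include saturated probes of Col1a1, Col1a2 and Vim, whose order is unsure. They also include Prrx1 probes, while other Prrx1 probes had opposite orders. Over all probes tested, 63% had the same order in both genotypes. The part of the markers in the Epha4 values was not tested.

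Epha7, another receptor of ephrin-A ligands, was detected by probe A_52_P504787 (chr4:28891069-28891128, plus strand) in every line. It read -1.42 and -2.93 in Ip6k1+/+ lines and -4.50 and -2.94 in Ip6k1-/- lines. Ip6k1+/+ replicate 2 and Ip6k1-/- replicate 2 were 0.0081 apart, so the groups touch. The mean of the Ip6k1-/- lines was 2.92-fold lower, or -1.54 on the log2 scale (standard error 0.77, 95% interval -3.55 to 0.46, limma adjusted p = 0.993). It missed the fold cutoff because Ip6k1-/- replicate 2 was 0.76 below the Ip6k1+/+ mean, short of the 0.9 asked of each line, whereas replicate 1 was 2.33 below it. The probe of the other Epha7 transcript, A_52_P306236 (chr4:28873570-28873629), was well above background in none of the 4 lines, so nothing was measured for it beyond the array's lower limit.

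Of the B-class receptors, Ephb3 had the clearest separation. Ephb3 is known from the sorting of cells in the intestine and from axon guidance. Its probe (chr16:21223025-21223084, plus strand) read 2.28 and 1.98 in Ip6k1+/+ lines and 1.56 and 1.51 in Ip6k1-/- lines. Both Ip6k1-/- lines were below both Ip6k1+/+ lines by a margin of 0.42, and the lines of 1 genotype were 0.31 and 0.05 apart. The difference was -0.59 (standard error 0.22, 95% interval -1.16 to -0.03), 1.51-fold lower. The limma p was 0.0434 unadjusted and 0.993 after adjustment over all probes. Over the alternatives that kept all lines, the unadjusted limma p ran from 0.0316 (quantile normalization) to 0.0696 (median centring). A t-test with equal variances gave 0.0615, and no probe of these genes passed it before or after adjustment. With 1 line left out, the difference ran from -0.75 to -0.44. Ephb3 was the 1 probe of 15 with an unadjusted limma p under 0.05, beside 3.34% of all probes tested.

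Ephb2, which like Ephb3 binds B-class ephrins and also binds ephrin-A5, differed little. Probe A_52_P315155 (chr4:136210602-136210661, minus strand) read 1.81 and 0.47 against 1.50 and 1.43, and the Ip6k1-/- lines lay between the Ip6k1+/+ lines. The difference was 0.33 (standard error 0.48, 95% interval -0.92 to 1.58, limma adjusted p = 0.993). Probe A_51_P163714, whose bases the files place over 1398 bases of the genome, gave 0.40 (standard error 0.46), and it too had Ip6k1+/+ replicate 2 as its lowest line.

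Ephb4 is the receptor of ephrin-B2, a pair best known from veins and arteries. Probe A_52_P542612 (chr5:137815289-137815348, plus strand) read 0.34 and 0.89 in Ip6k1+/+ lines and 0.43 and 0.49 in Ip6k1-/- lines, with a difference of -0.15 (standard error 0.28, 95% interval -0.89 to 0.59, limma adjusted p = 0.993). Its other probe, A_52_P45596, has no position in the files and read between -3.85 and -3.48 in the 4 lines, with a difference of -0.01 (standard error 0.34, 95% interval -0.89 to 0.88). Neither interval reaches 2-fold, but they do not show that the genotypes are alike.

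Among the ligands, Efna5, the lipid-anchored ligand of Epha3, Epha4, Epha7 and Ephb2, read 2.92 and 1.33 in Ip6k1+/+ lines and 2.41 and 1.97 in Ip6k1-/- lines on probe A_51_P144319 (chr17:62954177-62954236, minus strand). The Ip6k1-/- lines lay inside the range of the Ip6k1+/+ lines, and the difference was 0.06 (standard error 0.57, 95% interval -1.41 to 1.54, limma adjusted p = 0.994). Probe A_51_P218009 (chr17:63000207-63000266), for a different Efna5 transcript, was well above background in replicate 1 of each genotype, at -3.09 and -4.12, but in neither replicate 2. Neither genotype had it well above background on both arrays, so it did not enter the test of all lines. On both probes replicate 1 read above replicate 2 in both genotypes.

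Efnb1, the X-linked transmembrane ligand known for cell sorting in the skull and face, had 1 probe (chrX:96343505-96343564, plus strand). It read 2.89 and 1.37 in Ip6k1+/+ lines and 1.92 and 1.80 in Ip6k1-/- lines. Ip6k1+/+ replicate 1 stood highest and replicate 2 lowest, with both Ip6k1-/- lines between them, and the difference was -0.27 (standard error 0.53, 95% interval -1.66 to 1.12, limma adjusted p = 0.993). The lines were not of 1 sex by their transcripts: Xist, the RNA of the inactive X chromosome, was well above background in Ip6k1+/+ replicate 1 and Ip6k1-/- replicate 2 (3.55 and 3.65 on probe A_51_P145453), and the Y-linked Eif2s3y in the other lines (0.89 and 1.16). Efnb1 was higher in the line with Xist in Ip6k1+/+ and lower in it in Ip6k1-/-. Epha7 read higher in the line with Xist in both genotypes. So did Epha2, by 0.88 in Ip6k1+/+ and by 0.06 in Ip6k1-/- lines. The part of sex in these values was not tested.

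Efnb2, the transmembrane ligand of Ephb4, was read by 2 probes. Probe A_52_P340073 (chr8:8618177-8618236, minus strand) read 1.30 and 2.40 in Ip6k1+/+ lines and 1.32 and 2.64 in Ip6k1-/- lines. The replicate 1 lines nearly coincided and the replicate 2 lines lay above both, with a difference between genotypes of 0.13 (standard error 0.59, 95% interval -1.42 to 1.68, limma adjusted p = 0.993). Probe A_51_P380970 repeated this at -4.57 and -3.12 against -4.39 and -2.67, with a difference of 0.31 (standard error 0.79). Because Efnb2 and Ephb4 are abundant in vessels, endothelial markers were examined: 7 of 8, with Pecam1 and Cdh5 among them, were not well above background on any array. The exception was the growth factor receptor Kdr, which read -3.66 and -3.99 in Ip6k1+/+ lines and -2.94 and -1.59 in Ip6k1-/- lines (limma adjusted p = 0.993).

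**Figure D2:**
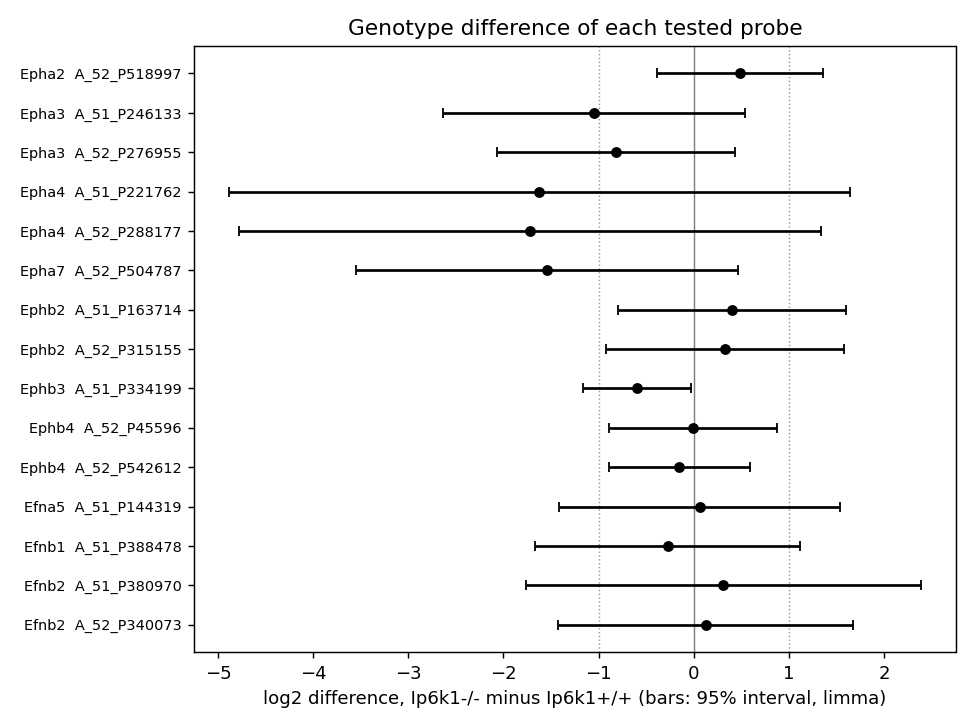
Difference between genotypes for each of the 15 probes tested, Ip6k1-/- minus Ip6k1+/+ on the log2 scale (horizontal axis), with the 95% interval of limma as bars; dotted lines mark 2-fold. The interval of Ephb3, from -1.16 to -0.03, is the only one that leaves out 0, and those of Epha4 are the widest.

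Over the 15 probes tested, 6 differences were above 0 and 9 below, with a median of -0.15 against 0.06 for all probes tested. Their median absolute difference was 0.40, beside 0.23 for all probes. No member gene passed limma at an adjusted p of 0.05, against 0.014% of all gene names tested, which were 2 of 14333. The deleted gene Ip6k1 was among them. None passed the fold cutoff as higher, against 1.51% of all gene names, and none as lower, against 2.44%. The lower count depended on single lines, being between 1 and 3 genes when any 1 line was left out: Epha4 without Ip6k1+/+ replicate 1 (5.02% of all gene names passed then), Epha7, Efna5 and Efnb1 without Ip6k1+/+ replicate 2 (7.6%), Epha3 without Ip6k1-/- replicate 1 (7.6%), and Epha4 and Epha7 without Ip6k1-/- replicate 2 (5.5%). Efnb2 passed as higher without Ip6k1-/- replicate 1, as did 7.88% of all gene names. Requiring 2-fold in the mean and no overlap of the genotypes left Epha7 as lower, beside 3.1% of all gene names. On the mean alone, with no limit on single lines, Epha3, Epha4 and Epha7 were past 2-fold lower. This was so for 5.19% of all gene names. Epha3 passed on 1 of its probes only, A_51_P246133 at -1.05, which was tested because it was well above background in the Ip6k1+/+ lines and not in every Ip6k1-/- line; the Epha3 probe detected in all lines was at -0.81. The 95% intervals of all 3 genes held 0.

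Genotypes did not overlap for 1 probe that was higher in Ip6k1-/- lines (Epha2), beside 18.8% of all probes, and for 3 that were lower (Epha3, Epha7 and Ephb3), beside 12.6%. The margins of Epha2, Epha3 and Epha7 were 0.0159, 0.0012 and 0.0081, so only that of Ephb3, at 0.42, was wider than 0.02. In 14 of the 15 probes the lines of 1 genotype differed by more than the means of the genotypes did, as was the case for 80.9% of all probes tested.

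The order of the lines was often the same in both genotypes, but several genes are counted with more than 1 probe. Some signs rest on gaps of 0.12 or less between the Ip6k1-/- lines. In 13 of 15 probes the sign of replicate 1 minus replicate 2 was the same in both genotypes, beside 63% of all probes tested; the exceptions were Epha2 and Epha7. Epha4 and Efnb2, a receptor and a ligand that can bind each other, were higher in replicate 2 of both genotypes, by 2.36 and 2.59 for Epha4 probe A_52_P288177 and by 1.11 and 1.33 for Efnb2 probe A_52_P340073. Both Ephb4 probes had the same order with smaller gaps, of 0.55 and 0.37 between Ip6k1+/+ lines and 0.06 and 0.11 between Ip6k1-/- lines. Epha3, Ephb2, Ephb3, Efna5 and Efnb1 were higher in replicate 1 of both, Ephb3 by only 0.31 and 0.05. For Ephb2 and Efnb1 this order was carried by the Ip6k1+/+ lines, which differed by 1.34 (probe A_52_P315155) and 1.52, whereas the Ip6k1-/- lines differed by 0.07 and 0.12. Nothing in the labels ties a replicate number to a shared property, and the probes share the same 4 arrays, so the order is a description of these lines.

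**Figure D3:**
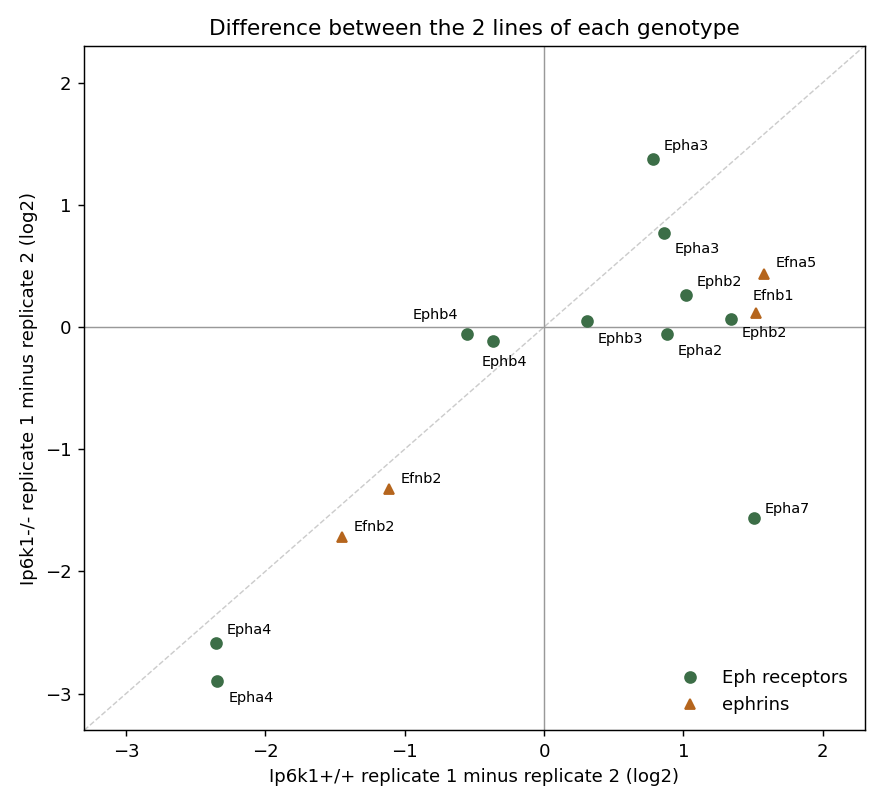
Difference between the lines of a genotype for each probe tested, replicate 1 minus replicate 2 on the log2 scale, for Ip6k1+/+ (horizontal axis) and Ip6k1-/- (vertical axis); circles are receptors, triangles ephrins, and the dashed line marks equal differences. Epha4 and Efnb2 lie low on the diagonal, Ephb2 and Efnb1 near the horizontal line at 0, and Epha7 alone has clearly opposite signs.

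Of the 7 remaining Eph receptors, 4 were not detected in any line, whereas all 5 remaining ephrins were well above background in every line. Epha5, Epha6, Epha10 and Ephb1, receptors best known from the nervous system, were not well above background in any line, and Epha8 was so in Ip6k1-/- replicate 2 alone, at -3.34. Epha1 read -3.20 and -1.06 in Ip6k1+/+ lines and -1.66 and 1.41 in Ip6k1-/- lines, which is 2.00 higher in mean (standard error 1.24, limma adjusted p = 0.993) with the lines of a genotype 2.13 and 3.07 apart. The kinase-dead receptor Ephb6 read -3.45 and -3.12 against -4.72 (not well above background) and -3.52. Efna1 followed replicate number, at 1.00 and -1.78 against 0.73 and -2.60. Efnb3, the remaining B-class ligand, read -3.39 and -3.09 against -2.81 and -2.22 and did not overlap (difference 0.72, standard error 0.37, limma adjusted p = 0.993). The differences of Efna2, Efna3 and Efna4 were 0.10, 0.46 and 0.17, each smaller than its own standard error.

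Beyond receptors and ligands, 61 of 76 listed genes of the pathway, the 12 other Eph and ephrin genes included, were tested with 110 probes. None passed limma at an adjusted p of 0.05. A single gene had an unadjusted p under 0.05 and was past the fold cutoff as higher, beside 3.34% of all probes and 1.51% of all gene names, which are shares near or above that of the list, so this is no result about the pathway. The gene was Adam12, a metalloprotease of a family that sheds ephrins from the membrane. Its probe A_52_P290457 was tested only because it was well above background in the Ip6k1-/- lines, at -3.36 and -4.26, and not in the Ip6k1+/+ lines, so a difference of at least 2.38-fold is given as a description (limma adjusted p = 0.993). Its other probe read -4.06 and -3.99 against -2.22 and -3.66, or 1.09 higher in mean (standard error 0.56, limma adjusted p = 0.993). The differences were above 0 for 74 of the 110 probes and below 0 for 36, with a median of 0.14, whereas 56.5% of all probes tested were above 0.

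By role, the Src-family kinases, adaptors and phosphatases that meet the receptor (21 of 24 genes tested) had a median of 0.17 over 40 probes. The partners of the ephrin-B tail had a median of 0.05 over 17 probes. The sheddases and proteases had 7 of 8 probes above 0 and a median of 0.34. No gene of these groups other than Adam12 had an unadjusted p under 0.05.

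The precision of all these values is set by the 2 lines in each genotype. The 95% interval held a 2-fold change in at least 1 direction for 13 of the 15 probes, so that a change of this size is not excluded for most of these genes. The exceptions were both probes of Ephb4.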

How the data were processed

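Each of the 4 lines was measured on 1 single-colour Agilent Whole Mouse Genome array. The authors deposited spot intensity from Feature Extraction 10.5.1.1, background-corrected and linear, with probe positions on mm9, and log2 values shifted to the 75th percentile by GeneSpring. After removal of a constant per array, the median deviation of the deposited log2 values from those used here was 0.0025. Here log2 of the processed intensity minus the array's 75th percentile over 43379 spots was taken, spots with an outlier flag (96, 99, 133 and 115) were left out, and spots of 1 probe averaged. The 75th percentile signal was 610, 747, 612 and 678. Tests covered the 21571 probes (14333 gene names) for which both arrays of a genotype, or of each, were well above background; lmFit and eBayes (variance trend) of limma 3.58.1 were used in R 4.3.3, and p-values were adjusted by Benjamini-Hochberg over all these probes. The fold cutoff asks for a mean log2 difference of 1 and of 0.9 or more for each single Ip6k1-/- line. A gene counts once if any probe passes. A bound ("at least") sets the brighter mean against the limit of detection on the dim arrays, the lowest signal called above background there. The fit was tested on simulated data.

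The 10 genes, the pathway and marker lists and the tests were chosen with earlier results of these data known. All members, Ip6k1, other detected Eph and ephrin genes, listed pathway genes with an unadjusted p under 0.05 or past the fold cutoff, and a few markers are named. Normalization, background correction, filters, tests, fold rules, a replicate block and the omission of single arrays were tried as alternatives. All arrays share slide and scan, so neither was a block. The p-values measure the spread between lines of 1 litter. Myogenic markers (6 of 6 genes) were not well above background on any array, nor were 3 of 6 immune, 2 of 7 neural or glial and 2 of 6 epithelial markers; of the neural markers, Sox2 passed the fold cutoff as lower (-2.06 and -4.69 in Ip6k1+/+ lines, not well above background in Ip6k1-/- lines). Some listed pathway genes are counted in the totals but not reported here by group.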

Additional observations from a re-analysis of the deposited data

How the results depend on the processing

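No member gene and no other pathway gene passed limma at an adjusted p of 0.05 under any alternative run. Of the 15 probes tested, 7 kept the sign of their difference in every alternative (Epha2, Epha3, Epha4, Epha7 and Ephb3) and 8 did not. The size of those 7 moved widely apart from Ephb3 (-0.75 to -0.44): over the alternatives Epha2 ran from 0.04 to 0.92, Epha3 from -1.73 to -0.20 on probe A_51_P246133 and from -1.25 to -0.38 on A_52_P276955, Epha4 from -3.07 to -0.18 on A_51_P221762 and from -3.01 to -0.43 on A_52_P288177, and Epha7 from -2.33 to -0.76. With normexp, Epha3 probe A_51_P246133 was at -0.20, Epha4 probe A_51_P221762 at -0.71 and Epha7 at -0.79. This setting added an offset of 50 to each signal, which makes log2 differences of dim probes smaller. The part of the offset in these values was not tested. Leaving out 1 line at a time gave differences from -0.11 to 0.91 for Ephb2 probe A_51_P163714 and -0.34 to 1.00 for Ephb2 probe A_52_P315155. For Ephb4 they ran from -0.43 to 0.13 on probe A_52_P542612 and from -0.19 to 0.18 on A_52_P45596. For Efna5 they ran from -0.73 to 0.85 on probe A_51_P144319, and for Efnb1 from -1.04 to 0.49. For Efnb2 they ran from -0.55 to 1.17 on probe A_51_P380970 and from -0.53 to 0.79 on A_52_P340073. Ephb4 probe A_52_P45596 also turned to 0.0394 with normexp, 0.0272 with quantile normalization and 0.0391 with median centring. The count of member genes past the fold cutoff as lower was 1 to 3 without single lines, 3 on the mean alone and 1 (Epha7) where genotypes must not overlap, and as higher 0 to 1 without single lines. Chosen after seeing the data, the count of probes that did not overlap and were higher was 2 with normexp and 0 with the deposited values, and of those lower 1 with quantile normalization and 1 with median centring.

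With replicate number as a block, no member gene was called; member probes with an unadjusted p under 0.05 went from 1 to 5 (Epha3, Epha4 and Ephb3), while the share over all probes went from 3.34% to 8.18%. The lowest adjusted p was then 0.254 (limma, Epha4 probe A_52_P288177). The labels do not pair the lines; replicate 1 minus replicate 2 correlated between genotypes at 0.479 across probes, which are not independent replicates.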
